A study of Sus scrofa with 28 samples.

Results

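The 4 genes described here, SPA17, TEKT1, CAPSL and ROPN1L, encode parts of motile cilia or proteins of the cells that bear them. They were found on the porcine array as every probe set (a group of probes read as 1 value) whose annotation gave exactly 1 symbol among the 4. Each gene had 1 such probe set, so that 4 of 6765 singly named genes and 4 of 23999 non-control probe sets are described. The 4 genes were chosen by their difference between the medium and the low dose, and by the opposite signs of those doses against air, in an earlier reading of the same arrays. All exposure differences of these genes are therefore a description, with no test, and no numeric threshold came with the choice. Lobe differences within an animal were not used in the choice and were tested.

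The arrays measured RNA from the lungs of female large swine that were anesthetized, intubated and laid supine. Over 10 min the animals breathed air (3 animals, 28, 29 and 44), a low dose of 60 µg/kg sulfur mustard vapor (3 animals, 31, 32 and 33) or a medium dose of 100 µg/kg (4 animals, 34, 39, 41 and 42). Sulfur mustard is an alkylating agent that damages airway epithelium. At 12 h the left apical, median and caudal lobes were taken, which gave 28 arrays from 10 animals, since the caudal lobe of medium animal 39 and the apical lobe of medium animal 41 were lacking. The animal was the replicate, and its lobes were repeated samples of it. No strain, age, genetic change or batch was named in the labels, and all groups shared the anesthesia. The tissue was whole lobe and not sorted airway epithelium, so fewer ciliated cells and less RNA per ciliated cell cannot be told apart.

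A motile cilium is built on an axoneme, a ring of doublet microtubules around a central pair, which dynein motors bend and radial spokes regulate. Multiciliated cells of the trachea, bronchi and bronchioles beat mucus toward the throat, and they switch on many axonemal genes together. In human and mouse, SPA17 (sperm autoantigenic protein 17) and ROPN1L (ropporin 1 like) carry the RIIa-type docking domain by which protein kinase A subunits bind anchoring proteins. TEKT1 is a tektin, a filament protein of axonemal doublets. CAPSL (calcyphosine like) is a protein with EF-hand motifs, which bind calcium.

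All signals below are the deposited intensities on a linear scale, in arbitrary units. Differences are on the scale of log2(signal + 16) after quantile normalization, which makes the distribution of signals the same on all arrays, and they are given with the standard error (SE) of limma, a linear model fitted across all probe sets. The offset of 16 pulls differences of dim probe sets toward 0. Array medians lay between 55.6 and 64.4, and each array correlated with the rest at a mean of 0.968 to 0.982. RNA integrity was read from the control probe sets for actin and GAPDH, as an index of 3' over 5' signal (log2) that is higher in less intact RNA. It averaged 1.12 in air, 0.76 in low and 1.24 in medium animals, was highest in medium animal 39 (2.22) and lowest in low animals 31 and 33 (0.62 each). The medium animals differed from the low animals by 0.48 in this index (exact permutation test over animals, two-sided, p = 0.343), from air by 0.12 (p = 0.886), and the low animals from air by -0.36 (p = 0.3, where 0.1 is the smallest possible).

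SPA17 (probe set Ssc.26248.1.A1_at) had signals between 48.3 and 169 over the 28 arrays, and its median array placed it above 59.9% of probe sets. Averaged over the lobes of an animal, its signal was 98.2, 81.4 and 90.7 in air animals 28, 29 and 44. It was 109, 138 and 139 in low animals 31, 32 and 33. It was 105.0, 54.5, 50.6 and 54.2 in medium animals 34, 39, 41 and 42. Every low animal was above every air animal, and 3 of the 4 medium animals were below every air animal. Medium animal 34 was above all air animals and just below low animal 31, so that the medium and air groups overlapped through this animal. Group means were 90.1 ± 8.43 in air, 129 ± 17.2 in low and 66.1 ± 26.0 in medium animals (SD, n = 3, 3 and 4). The log2 difference of medium minus air was -0.41 ± 0.20, that of low minus air 0.44 ± 0.21 and that of medium minus low -0.85 ± 0.20. The value depended on which medium animals were used. Medium minus air was -0.62 without animal 34 and -0.19 in the 8 animals with all lobes, which leaves animals 34 and 42 in the medium group. Medium minus low was -1.06 and -0.63 in the same sets of animals.

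ROPN1L (Ssc.10901.1.A1_at), the other RIIa-domain gene, was the brightest of the 4 probe sets, with signals between 231 and 543 and a median percentile of 84.5. Its signal over the lobes was 320.2, 342 and 266 in air animals 28, 29 and 44, and 367, 467 and 486 in low animals 31, 32 and 33. It was 326, 317, 304 and 275 in medium animals 34, 39, 41 and 42. The low animals stood above both other groups, whereas the medium and air animals covered nearly the same range. Group means were 309.5 ± 39.01 in air, 439.8 ± 63.4 in low and 306 ± 22.3 in medium animals. Low minus air was 0.49 ± 0.12, medium minus low -0.52 ± 0.12 and medium minus air -0.03 ± 0.12, a value smaller than its error. ROPN1L medium minus air also changed sign with the animals used, at 0.04 without air animal 29 and -0.13 without air animal 44. SPA17 thus lay about as far below air with the medium dose as above it with the low dose, whereas ROPN1L differed mainly between the low animals and the rest.

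TEKT1 (Ssc.24124.1.S1_at), the tektin, was the dimmest of the 4, with signals between 23.5 and 88.9 and a median percentile of 42.6. Its signal over the lobes was 40.3, 43.2 and 47.9 in air animals 28, 29 and 44, and 54.6, 76.8 and 51.0 in low animals 31, 32 and 33. It was 31.6, 37.9, 23.9 and 35.4 in medium animals 34, 39, 41 and 42. No animals overlapped between any pair of groups in TEKT1, and medium animal 34, high in SPA17, was below every air animal here. The gaps were narrow, with 37.9 in medium animal 39, which lacks a caudal array, against 40.3 in air animal 28. Low animal 33 (51.0) was likewise close to air animal 44 (47.9). The share of all probe sets with all groups apart was not counted, and shares by pair of groups are given below. Group means were 43.8 ± 3.87 in air, 60.8 ± 13.9 in low and 32.2 ± 6.09 in medium animals. Medium minus air was -0.34 ± 0.16, low minus air 0.33 ± 0.17 and medium minus low -0.67 ± 0.16. Single animals carried a large part of the differences from air, which were 0.18 for low minus air without low animal 32 and -0.22 for medium minus air without medium animal 41.

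CAPSL (Ssc.10462.1.S1_at), the calcyphosine relative, had signals between 72.4 and 198 and a median percentile of 63.4. Its signal over the lobes was 143, 115 and 109.8 in air animals 28, 29 and 44, and 103, 179 and 158 in low animals 31, 32 and 33. It was 93.9, 80.2, 104 and 87.3 in medium animals 34, 39, 41 and 42. Low animal 31 was below all 3 air animals, and low animals 32 and 33 were above them, so CAPSL was the one gene of the 4 whose low animals overlapped with air. Low animal 31 was also level with medium animal 41, which lacks an apical array. The log2 value adjusted for lobe was 6.87 in medium animal 41 and 6.88 in low animal 31. Group means were 122 ± 17.8 in air, 147 ± 38.95 in low and 91.3 ± 10.1 in medium animals. Medium minus air was -0.34 ± 0.16, low minus air 0.22 ± 0.17 and medium minus low -0.56 ± 0.16. Low minus air was 0.07 without low animal 32 and 0.43 without low animal 31.

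**Figure D1:**
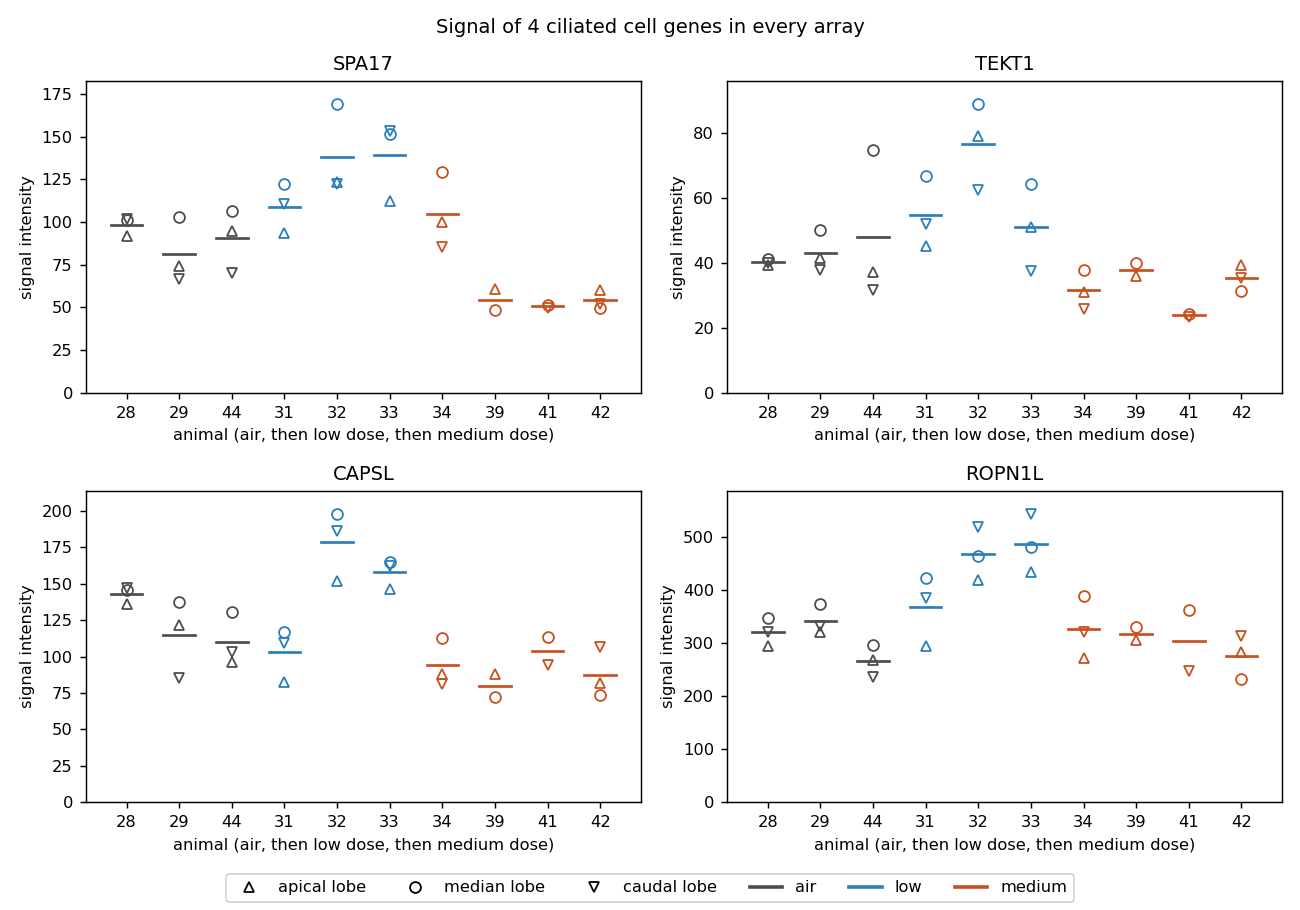
Deposited signal intensity (arbitrary units, linear axes from 0) of the 4 genes on each of the 28 arrays, by animal, with the exposures in the order air, low and medium. Symbols mark the lobe and bars the mean over an animal's lobes, and the medium animals lie below the low animals except in CAPSL, where medium animal 41 (104) is level with low animal 31 (103).

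The levels of each gene ran in the order low, air, medium. Neighbouring groups in that order were not all separated, since medium and air animals overlapped in SPA17 and ROPN1L and low and air animals in CAPSL. By the log2 value adjusted for lobe, medium animals were all below low animals in 4 of 4 genes, where 6.6% of all probe sets had this pattern. Medium animals were all below air animals in 2 of 4 (TEKT1 and CAPSL, 6.6% of all probe sets), and low animals all above air animals in 3 of 4 (all but CAPSL, 9.23% of all probe sets). Low above air together with medium below air, by group means, held for 4 of 4 genes and for 18.5% of all probe sets. These counts come from the contrasts by which the genes were chosen, and nothing is read from them. The low and the medium difference also share the same 3 air animals, so that an air animal with a low value raises both.

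At a Benjamini-Hochberg adjusted p under 0.05 over all probe sets in limma, 0 of the 4 genes were called in each of the 3 exposure contrasts. The calls among all probe sets were 31 of 23999 in medium minus air (0.129%), 0 in low minus air (0%) and 1 in medium minus low (0.00417%). The median difference of the 4 genes was -0.34 in medium minus air, 0.38 in low minus air and -0.61 in medium minus low, whereas the median of all probe sets was within 0.01 of 0 in each. Because these contrasts chose the genes, the counts are no test of them. The count in medium minus low depended on the model and the animals, at 2 of 4 without medium animal 34 and 4 of 4 with a random animal effect, where 1371 and 1401 probe sets were called in all. In medium minus air it was 1 of 4 without medium animal 34, with 237 probe sets in all.

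The same order appeared within lobes, each fitted separately with 1 array per animal. Medium minus low was below 0 in 12 of 12 combinations of gene and lobe, and low minus air above 0 in 12 of 12. Medium minus air was below 0 in 11 of 12, the exception being ROPN1L in the caudal lobe (0.02 ± 0.17). In the apical lobe medium minus low was similar in the 4 genes, between -0.45 and -0.41. In the median lobe it spread from -0.98 ± 0.25 in SPA17 to -0.49 ± 0.16 in ROPN1L, and in the caudal lobe from -0.95 ± 0.23 in SPA17 to -0.60 ± 0.21 in CAPSL. Medium arrays were all below low arrays for 2 of 4 genes in the apical lobe (6.79% of all probe sets), 3 of 4 in the median lobe (9.24%) and 4 of 4 in the caudal lobe (7.34%). The lobes did not hold the same medium animals, since the apical lobe lacks animal 41 and the caudal lobe animal 39.

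SPA17 was the gene that overlapped in the median lobe, where its signals were 101.4, 103 and 107 in air animals 28, 29 and 44. They were 122, 169 and 152 in low animals 31, 32 and 33, and 129, 48.3, 51.6 and 49.9 in medium animals 34, 39, 41 and 42. Medium animal 34 stood among the low animals, and the other 3 medium animals were far below every low animal. In the caudal lobe SPA17 read 102, 66.8 and 70.4 in air animals 28, 29 and 44, and 110.5, 122 and 153 in the low animals. The caudal arrays of medium animals 34, 41 and 42 read 85.5, 49.6 and 52.3, so that all of them were below the low animals and only animal 34 was within the air range. In the apical lobe SPA17 averaged 87.0 ± 10.999 in air, 109.8 ± 14.96 in low and 73.7 ± 22.8 in medium animals (SD, n = 3 each).

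For the other genes the lobes are given by their group means, in the order air, low and medium. ROPN1L had its highest lobe mean in the caudal lobe of low animals, at 482 ± 84.97, where air animals had 296 ± 52.7 and medium animals 293 ± 40.7. Its low minus air difference was 0.68 ± 0.17 in that lobe, 0.43 ± 0.17 in the median lobe and 0.37 ± 0.14 in the apical lobe. TEKT1 averaged 39.3 ± 2.11, 58.4 ± 18.1 and 35.5 ± 4.27 in the apical lobe, and 36.6 ± 4.29, 50.7 ± 12.4 and 28.2 ± 6.35 in the caudal lobe. In the median lobe, TEKT1 was at 55.5 ± 17.4, 73.3 ± 13.6 and 33.3 ± 7.004, with the median lobe of air animal 44 (74.9) inside the range of the low animals. The air animals' median lobe was thus less uniform in TEKT1 than their apical lobe. CAPSL averaged 118 ± 20.3, 127 ± 38.3 and 85.8 ± 3.48 in the apical lobe and 138 ± 7.49, 160.0 ± 40.7 and 93.1 ± 23.2 in the median lobe. In the caudal lobe CAPSL had 112 ± 31.8, 153 ± 39.1 and 94.0 ± 12.4. The spread of CAPSL was widest among the low animals in every lobe, where animal 31 gave the lowest signal each time (82.8, 117 and 109.6 in the apical, median and caudal lobes).

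**Figure D2:**
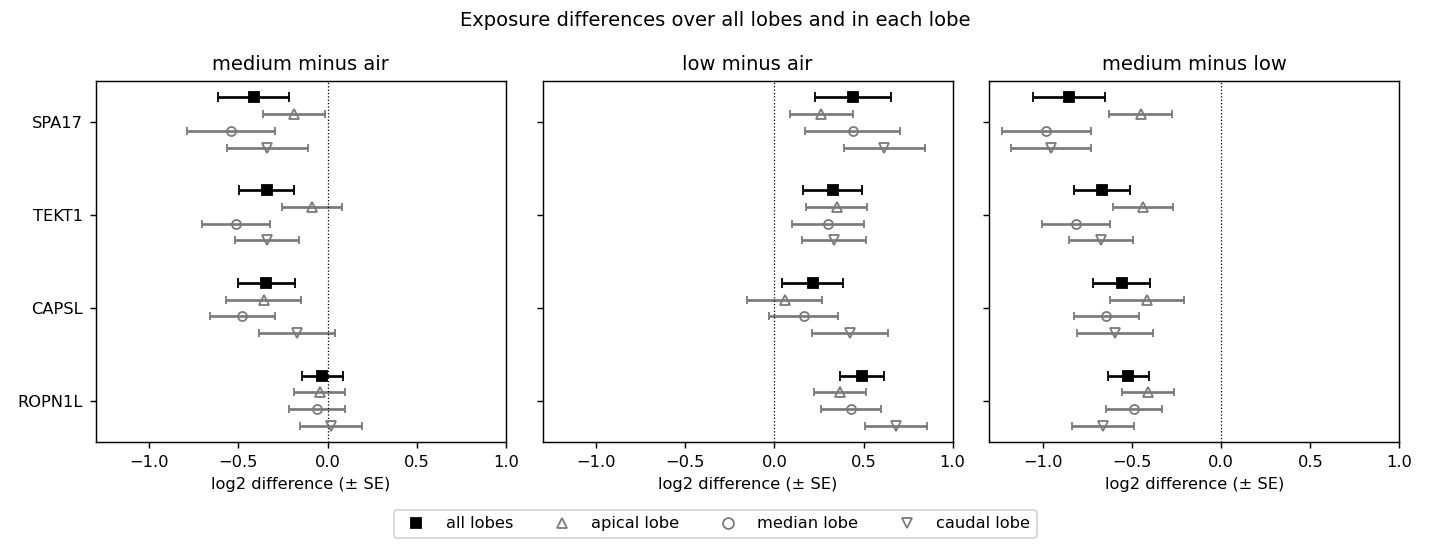
Log2 differences with standard errors of the 4 genes for medium minus air, low minus air and medium minus low, over all lobes (squares) and in each lobe (other symbols). Medium minus low lies below 0 in every lobe, between -0.98 and -0.41, and ROPN1L lies near 0 in medium minus air.

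Whether the exposure differences varied between lobes was tested as an interaction within animals, which the choice of genes had not used. The interaction did not pass for any of the 4 genes (limma's moderated F test, adjusted p = 0.713 for SPA17, 0.918 for TEKT1, 0.844 for CAPSL and 0.913 for ROPN1L). It was called for 0 of 23999 probe sets (0%), of which 1773 had an unadjusted p under 0.05. The larger SPA17 differences in the median and caudal lobes than in the apical lobe were therefore not separated from the spread between arrays.

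Differences between lobes were tested on the 28 arrays in a model with the animal as a block. The 4 genes tended to the highest value in the median lobe, without passing the test. Apical minus median was -0.17 ± 0.08 in SPA17 (limma, adjusted p = 0.304), -0.18 ± 0.08 in TEKT1 (adjusted p = 0.280) and -0.17 ± 0.08 in CAPSL (adjusted p = 0.318). ROPN1L had -0.23 ± 0.07 (adjusted p = 0.109). The apical value was the lower in 7 of 9 animals with both lobes for SPA17, TEKT1 and CAPSL, and in 8 of 9 for ROPN1L. Of all probe sets, 14.3% were lower in the apical lobe in at least 7 of 9 animals and 5.25% in at least 8. None of the 4 genes was called, whereas 570 probe sets were (2.38%), and 2 of the 4 genes (TEKT1 and ROPN1L) had an unadjusted p under 0.05, as did 16.6% of all probe sets.

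Median minus caudal was 0.21 ± 0.08 in SPA17 (limma, adjusted p = 0.329), 0.28 ± 0.08 in TEKT1 (0.189), 0.11 ± 0.08 in CAPSL (0.633) and 0.10 ± 0.07 in ROPN1L (0.643). The median lobe was the higher in 7 of 9 animals for SPA17 and TEKT1 and in 6 of 9 for CAPSL and ROPN1L. Among all probe sets, 11.4% were higher in the median lobe in at least 7 animals and 26.4% in at least 6. No probe set was called (0%), and 2 of the 4 genes (SPA17 and TEKT1) were among the 11.6% with an unadjusted p under 0.05. Apical minus caudal had mixed signs, at 0.04 ± 0.08 in SPA17, 0.10 ± 0.09 in TEKT1, -0.06 ± 0.09 in CAPSL and -0.13 ± 0.08 in ROPN1L (limma, adjusted p between 0.491 and 0.884). It was called for 0 of the 4 genes, none of which had an unadjusted p under 0.05, and for 40 probe sets (0.167%).

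Within the 3 air animals alone, apical minus median was -0.20 in SPA17, -0.30 in TEKT1, -0.20 in CAPSL and -0.21 in ROPN1L. Median minus caudal was 0.33, 0.39, 0.30 and 0.21 in the same genes. The signs were those seen over the 28 arrays. With 9 arrays, no probe set was called in any of the 3 lobe contrasts in limma (0% in apical minus median, apical minus caudal and median minus caudal alike). Unadjusted p-values under 0.05 numbered 1520, 1216 and 1994. TEKT1 of air animal 44 gave the widest single differences, with an apical value 0.79 below and a caudal value 0.94 below its median lobe on the log2 scale. Over the 3 exposures together, TEKT1 apical minus median was -0.11 without that animal and -0.18 with it.

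The animals whose apical lobe was not the lower were mostly medium animals, with air animal 28 in TEKT1 as the exception. In medium animal 42 the apical lobe was above the median lobe in all 4 genes, by 0.20 in SPA17, 0.23 in TEKT1, 0.10 in CAPSL and 0.23 in ROPN1L. Its caudal lobe was above its median lobe by 0.42 in CAPSL and 0.38 in ROPN1L. Medium animal 39 had a higher apical than median lobe in SPA17 (by 0.25) and CAPSL (by 0.21). In medium animal 34 all 4 genes were lower in the apical and in the caudal lobe than in the median lobe, as in air animals 29 and 44 and low animal 31. The log2 SD between lobes of an animal was 0.18 in SPA17 and TEKT1, 0.19 in CAPSL and 0.16 in ROPN1L. The SD between animals of an exposure was 0.30 in SPA17, 0.23 in TEKT1 and CAPSL and 0.16 in ROPN1L, so SPA17 varied most between animals.

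**Figure D3:**
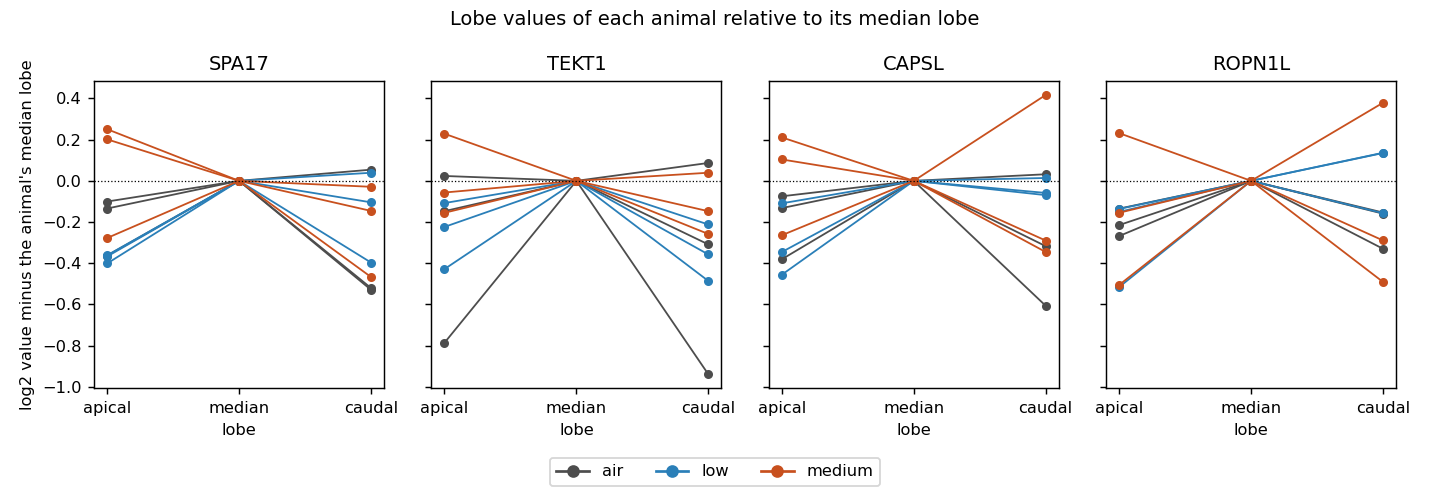
Log2 value of each lobe minus that of the same animal's median lobe, 1 line per animal, coloured by exposure. Most lines lie below 0 at the apical and caudal ends, and medium animal 42 lies above 0 at the apical end in all 4 panels (0.10 to 0.23).

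The 4 genes varied together. Over the 28 arrays the Pearson correlation of a pair lay between 0.59 (TEKT1 with ROPN1L) and 0.74 (CAPSL with ROPN1L), whereas the median correlation of each gene with all probe sets was within 0.01 of 0. These arrays share animals, and the genes share the exposure differences they were chosen for. After subtraction of the mean of each exposure and lobe group, the pairs of TEKT1 had 0.18 to 0.22, and the other 3 pairs 0.41 to 0.63. The upper 5% of all probe sets began there at 0.50 for SPA17, 0.45 for TEKT1, 0.39 for CAPSL and 0.43 for ROPN1L. The pairs of TEKT1 lay below it for both of their genes. SPA17 with CAPSL (0.41) and with ROPN1L (0.47) lay below it for SPA17 and above it for the other gene. CAPSL with ROPN1L (0.63) lay above it for both genes. After subtraction of each animal's mean, which leaves only differences between lobes of the same animal, the pairs had 0.39 to 0.69. The upper 5% of all probe sets began between 0.36 and 0.44 on that scale. TEKT1 with ROPN1L (0.39) lay above it for TEKT1 (0.36) and below it for ROPN1L (0.44). Variation between the lobes of an animal was thus partly shared by the 4 genes, TEKT1 included.

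The genes most like the 4 were taken by the mean of the 4 correlations. Over the 28 arrays the leading 10 were FAM216B (0.80), LOC100621778 (0.77), PDE6C (0.76), MLF1 (0.75), RSPH14 (0.74), C17H20ORF85 (0.74), NDUFS3 (0.73), UBXN10 (0.73), PLPP2 (0.73) and C1H14ORF37 (0.72). RSPH14 is named for the radial spoke head, and NDUFS3 is a subunit of mitochondrial complex I. With group means subtracted, the leading 10 were MYCBP, C1H14ORF37, BPIFA1, LOC100520582, RSPH14, LDHD, FAM216B, MLF1, CFAP126 and MYOM1, with means between 0.62 and 0.55. The lists shared 4 symbols, C1H14ORF37, RSPH14, FAM216B and MLF1. CFAP126, a cilia and flagella associated protein, was the 1 gene of these whose symbol also stood in the list of ciliated cell genes described next. C17H20ORF85 stands in that list under its RefSeq synonym C20ORF85 and was not matched by symbol.

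Of 164 symbols listed as structural genes of ciliated cells, apart from the 4, 18 were measured under a single symbol. FOXJ1, the transcription factor that drives the motile cilia program, was not among the measured symbols, and RFX1, a factor of the RFX family, was the 1 regulator measured (medium minus low 0.16 ± 0.12). The list was drawn up with earlier results of these data known, and its genes varied with the 4 on the same arrays. Its exposure counts are therefore a description and no independent support. In medium minus low, 17 of the 18 structural genes were below 0, with a median of -0.28, where 53.6% of all 6765 symbols were below 0. In low minus air 18 of 18 were above 0 (median 0.22), against 50.1% of all symbols. In medium minus air 12 of 18 were below 0 (median -0.05), against 54.3%. None of the 18 was called in limma in any of these contrasts, and 6, 3 and 1 had an unadjusted p under 0.05. The share with such a p among all symbols was 19.2% in medium minus low, 6.83% in low minus air and 19.3% in medium minus air. With C17H20ORF85 (medium minus low -0.65 ± 0.19) added to the list, 18 of 19 were below 0 in medium minus low, 19 of 19 above 0 in low minus air and 13 of 19 below 0 in medium minus air. Medium minus low stayed at 16 or 17 genes below 0 when any 1 animal was left out. The other contrasts moved with single animals, since low minus air had 14 of 18 above 0 without low animal 32, and medium minus air had 7 of 18 below 0 without air animal 28 and 9 of 18 without medium animal 42.

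The 4 genes of this list with the largest medium minus low differences were ENKUR, CCDC181, LRRC6 and LRRC23. ENKUR (enkurin, an axonemal protein) had signals of 83.9, 88.4 and 79.7 in air animals 28, 29 and 44, and 111, 114 and 132 in the low animals. It read 96.2, 50.5, 51.9 and 62.3 in medium animals 34, 39, 41 and 42, with animal 34 above the other medium animals as in SPA17. Its medium minus low difference was -0.74 ± 0.17. CCDC181, a coiled-coil protein, had 138, 149.9 and 139.8 in air, 167, 145 and 166 in low and 119, 107, 82.4 and 92.4 in medium animals, with no medium animal as high as any air or low animal. Its medium minus low difference was -0.59 ± 0.11 and its medium minus air difference -0.45 ± 0.11. LRRC6, an assembly factor of ciliary dynein arms, had a difference of -0.56 ± 0.19 at a mean signal of 25.3. LRRC23, a radial spoke protein, had one of -0.55 ± 0.22. In both genes the medium and low animals overlapped. LRRC6 read 31.35 in medium animal 34, against 29.8 and 29.4 in low animals 31 and 32. LRRC23 read 45.5 and 46.9 in medium animals 34 and 39, against 44.9 in low animal 31. TSNAXIP1 was the exception among the 18, with a medium minus low difference of 0.13 ± 0.13. Low above air together with medium below air held for 12 of the 18 (66.7%), against 21.4% of all symbols. All 18 were above 0 in low minus air, so this count is set by medium minus air alone. There the median of the 18 was -0.05, and 54.3% of all symbols were below 0.

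**Figure D4:**
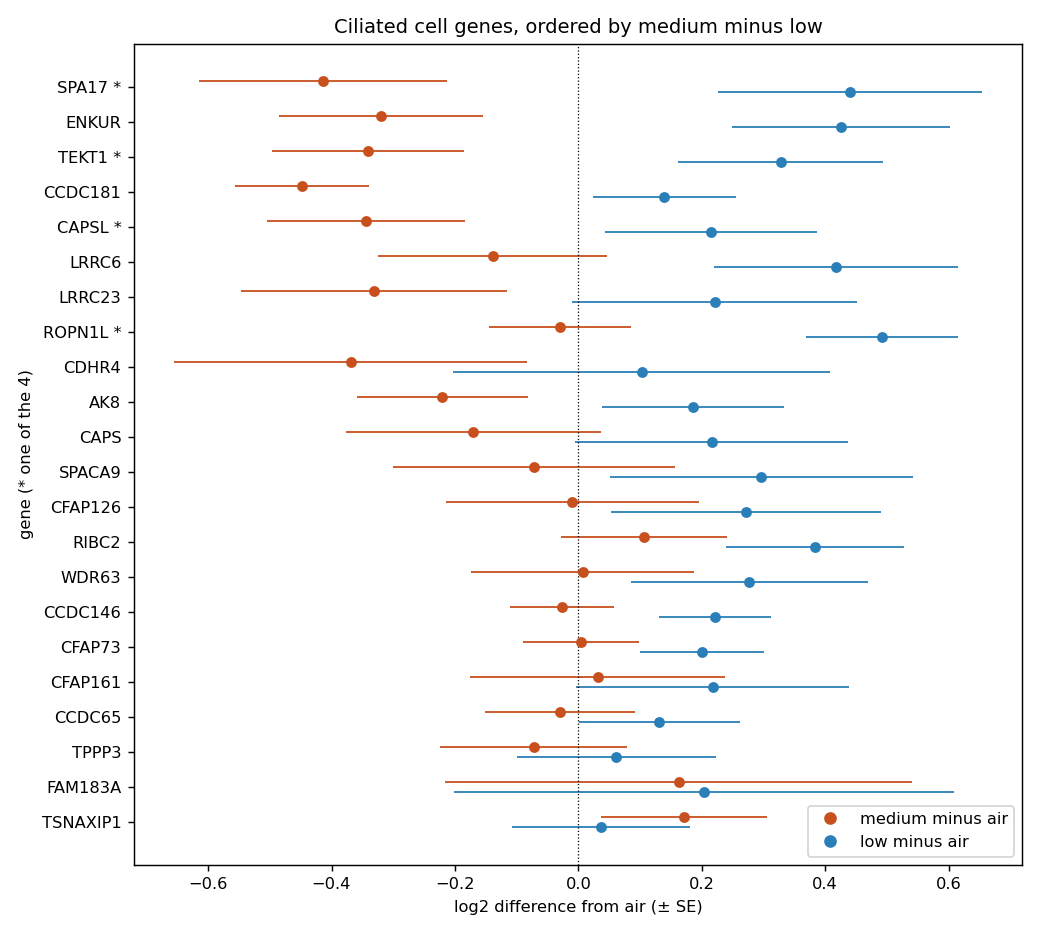
Log2 differences from air, with standard errors, of the 4 genes (starred) and the 18 other ciliated cell genes, ordered by medium minus low. Low minus air lies right of 0 for every gene, and medium minus air left of 0 for the 4 starred genes and 12 of the other 18.

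In apical minus median and median minus caudal, the other ciliated cell genes mostly had the same signs as the 4, likewise without a call. Apical minus median was below 0 in 17 of 18 (median -0.18; 51.5% of all symbols), and median minus caudal above 0 in 16 of 18 (median 0.15; 50.3% of all symbols). Neither contrast had a call among the 18 in limma, and 6 and 7 had an unadjusted p under 0.05, as did 22.3% and 11.5% of all symbols. Of all symbols, 3.87% were called in apical minus median and 0% in median minus caudal. CFAP126 had -0.25 ± 0.08 for apical minus median (adjusted p = 0.106), and FAM183A 0.41 ± 0.15 for median minus caudal (adjusted p = 0.307). Apical minus caudal was split, with 9 above and 9 below 0. Their mean correlation with the 4 genes over the 28 arrays was above 0 in 18 of 18 (median 0.61), and it had a median of 0.39 with group means subtracted and 0.51 within animals.

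Relatives by protein family had mixed signs. Apart from the 4, the lists of RIIa-domain proteins with their partners, tektins and calcyphosines held 5 measured genes, of which 3 were above 0 and 2 below 0 in medium minus low (median 0.00, no call). AKAP3, an anchoring protein of the sperm fibrous sheath in human and mouse, had 0.50 ± 0.14, PRKACA, a catalytic subunit of protein kinase A, 0.13 ± 0.07, and the regulatory subunit PRKAR2A -0.27 ± 0.26. CAPS, a calcyphosine that is also a ciliated cell gene, had -0.39 ± 0.21. Of 12 measured genes of intraflagellar transport, which carries cargo along motile and primary cilia, 9 were below 0 in medium minus low (median -0.08, no call), with the largest difference in IFT46 (-0.57 ± 0.11).

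Markers of other cells of the lobe were read in the same way. Of 31 symbols listed as airway secretory and goblet cell markers, 15 were measured, and SCGB1A1, MUC5AC and MUC5B were not. Of the 15, 7 were below and 8 above 0 in medium minus low (median 0.06). The 8 include KRT8 and KRT18, which also stand in a list of general epithelial markers, and MUC4, with a mean signal of 4.69. The count is thus not one of secretory cells alone. The largest medium minus low difference of the 15 was that of BPIFA1, a secreted protein of airway epithelium, at -1.29 ± 0.60. TFF3, a trefoil peptide of mucous cells, had -0.75 ± 0.28, and the keratin KRT18 went the other way, at 0.69 ± 0.20. BPIFA1 read 399, 325 and 131 in air animals 28, 29 and 44, 117, 678 and 515 in low animals 31, 32 and 33, and 245, 134, 80.6 and 112 in medium animals 34, 39, 41 and 42. Low animal 31 was the lowest of its group in BPIFA1 as in CAPSL, and medium animal 34 the highest of its group in BPIFA1 as in SPA17. MUC1, a membrane mucin, was called in medium minus air (-0.74 ± 0.08, limma, adjusted p = 0.0195). KRT18 was above 0 in that contrast without a call (0.86 ± 0.20, limma, adjusted p = 0.106), and 9 of the 15 markers were above 0 there. Summed signals of the 15 secretory markers lay between 6610 and 7662 in air, 7354 and 8396 in low and 7158 and 7883 in medium animals. Those of the 18 ciliated cell genes lay between 1887 and 2498 in air, 2096 and 2819 in low and 1832 and 2243 in medium animals, so that the ranges overlapped in both lists.

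Other lists were mixed in medium minus low, where 53.6% of all symbols were below 0. Below 0 were 4 of 4 airway basal cell markers (median -0.07), 3 of 7 general epithelial markers (0.17), 3 of 5 markers of alveolar type 2 cells (-0.31) and 2 of 5 of alveolar type 1 cells (0.06). Below 0 were also 7 of 9 smooth muscle (-0.03), 5 of 8 endothelial (-0.02), 2 of 6 neutrophil (0.04) and 1 of 6 cartilage markers (0.09), with no call in any of these lists. Of the basal cell markers, DAPL1 had -0.33 ± 0.17, whereas DST, PERP and ITGA6 (mean signal 2.23) differed by less than their errors. Cartilage marks larger airways, and its summed signal was 116.4 to 136 in air, 103 to 129 in low and 123 to 154 in medium animals. Whether the share of airway tissue in a sample had a part in the exposure or lobe differences of the 4 genes was not tested.

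In apical minus median and median minus caudal, epithelial markers mostly had the same signs as the ciliated cell genes. Apical minus median was below 0 in 14 of 15 secretory markers (median -0.19) and in 7 of 7 general epithelial markers (-0.15), against 51.5% of all symbols. Both lists hold the keratins KRT8 and KRT18. KRT19 (-0.43 ± 0.09, limma, adjusted p = 0.022) and KRT18 (-0.53 ± 0.14, adjusted p = 0.0496) were lower in the apical lobe. Endothelial markers went the other way, with 6 of 8 above 0 (median 0.11). Median minus caudal was above 0 in 12 of 15 secretory and 5 of 7 general epithelial markers (50.3% of all symbols). Apical minus caudal was below 0 in 11 of 15 and 5 of 7 of them (52.3% of all symbols), whereas the ciliated cell genes were split. Within animals, the median correlation with the 4 genes was 0.37 over the secretory markers and 0.34 over the general epithelial markers. It was 0.26 over the cartilage markers, all of them dim, and -0.23 over the endothelial markers. Over the 28 arrays the secretory and general epithelial lists had 0.16 and -0.06, below their values within animals.

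**Figure D5:**
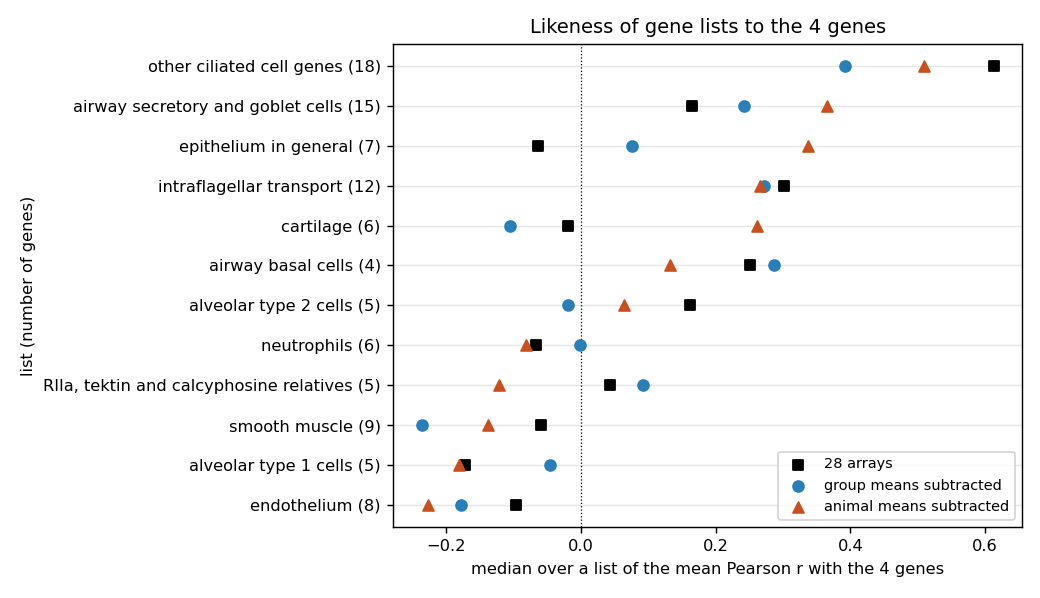
Median over each gene list of the mean Pearson correlation with the 4 genes over the 28 arrays, after subtraction of group means and after subtraction of animal means, with the number of genes in brackets. The other ciliated cell genes are highest on all 3 scales (0.61, 0.39 and 0.51), and secretory and general epithelial markers come next within animals (0.37 and 0.34).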

How the data were processed

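Expression was measured on the Affymetrix porcine array in 28 lung lobe samples of 10 swine. The authors deposited linear signal intensities, with each array in its own column. The mean after trimming the lowest and highest 2% was 150.02 on every array, as after scaling by the authors. The summarization software was not given in the sources used here, and 0 columns lacked a sample. Of 24123 probe sets, 124 controls were left out and 23999 tested without a brightness filter. GEO's platform annotation gave 1 symbol for 10069 of these, several for 198 and none here for 13732. A gene was represented by its brightest probe set.

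The arrays were quantile normalized on the log2(signal + 16) scale, since lower quartiles differed by up to 0.316. Models were fitted in R 4.3.3 with limma 3.58.1, and figures used matplotlib 3.10.9 in Python 3.11.15. Exposures were compared with 1 value per animal, its coefficient in a model of animal and lobe. Lobes and the interaction used the animal as a fixed block, because the labels give lobes of an animal its number (consensus correlation 0.344). Calls were made at a Benjamini-Hochberg adjusted p under 0.05 over all probe sets. The steps were tested on simulated data in which the added differences were larger than those of the 4 genes. Whether differences as small as theirs would be called was not tested.

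Named were the 4 genes, the 10 most correlated symbols on each of 2 scales, and of each list up to 4 genes by medium minus low or by lobe calls. The 4 genes and the lists were chosen with earlier results of these data known. TSNAXIP1, FAM183A and MUC1 were named after their values were seen. Alternatives were the deposited scaling, median centring, an offset of 1, only probe sets brighter than the median, trend and robust eBayes, other animal models, an RNA index covariate, and fewer animals. The ciliated cell list without each animal, and with RefSeq synonyms matched, was added after seeing the data. The number of arrays limits the precision.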

Additional observations from a re-analysis of the deposited data

Results flagged for a closer look

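SPA17 in the median lobe of medium animal 34 stood apart from its group. Its log2 value was 7.16, and the other 3 medium animals lay between 6.06 and 6.09, so that the gap was 0.975 of the whole range of the group, above Dixon's critical value of 0.829 for 4 samples. It was the 1 case among the 9 groups of 4 animals examined, and chance gives about 1 in 20 groups. The same animal was highest of the medium animals in ROPN1L, ENKUR, CCDC181, LRRC6 and BPIFA1. It was not the highest in TEKT1, CAPSL, CAPS, LRRC23 or TFF3, and it had the lowest RNA index of its group (0.66). The part of these in the SPA17 value was not tested.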

How the results depend on the processing

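Over 20 alternatives to each exposure difference, SPA17, TEKT1 and CAPSL kept their signs in the 3 contrasts. ROPN1L kept them except in medium minus air, which changed sign in 2. TEKT1 gives no value when probe sets dimmer than the median are left out. The number of the 4 genes called in medium minus air ranged between 0 and 1, and in medium minus low between 0 and 2, when 1 animal was left out. The upper ends came without medium animal 34, and the count in medium minus low was 4 with a random animal effect. The genes were chosen by these contrasts, so that such counts support nothing. Medians of the 4 genes ranged between -0.44 and -0.23 in medium minus air, 0.29 and 0.48 in low minus air, and -0.77 and -0.50 in medium minus low. SPA17 medium minus air was -0.19 in the 8 animals with all lobes, and TEKT1 medium minus low was -0.91 with an offset of 1. With the RNA index as a covariate, medium minus low was -0.76, -0.75, -0.58 and -0.54 in SPA17, TEKT1, CAPSL and ROPN1L.

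Apical minus median and median minus caudal kept their signs in the 4 genes under the alternatives run. Apical minus caudal turned to -0.0051 in SPA17 without air animal 44, and to 0.10 in CAPSL and 0.0084 in ROPN1L in the air animals alone. Without the replicate block, ignoring the animal, apical minus median was -0.13 in SPA17, apical minus caudal 0.17 in TEKT1 and the interaction's adjusted p 1, and no call of the 4 genes changed. Probe sets called ranged between 0 and 1044 in medium minus air, 0 and 28 in low minus air, 0 and 1401 in medium minus low, 0 and 1005 in apical minus median, 0 and 150 in apical minus caudal, 0 and 3 in median minus caudal and 0 and 1 in the interaction. The cause of these changes was not tested.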
